A study of Mus musculus with 12 samples.

Results

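The 10 genes described here encode the troponins and tropomyosins of striated muscle, and were taken by the gene name on the array, with older names matched through the accession of each probe. They are Tnnt1, Tnnt2 and Tnnt3 for troponin T, Tnni1 and Tnni2 for troponin I, Tnnc1 and Tnnc2 for troponin C, and Tpm1, Tpm2 and Tpm3 for tropomyosin. They carried 17 of the 41174 probes and made up 10 of the 15233 genes that were tested. RNA of whole gastrocnemius, a calf muscle made mostly of fast fibres, came from adult male CD1 mice, with 3 arrays in each of 4 groups and different animals for each experiment. The groups were Smad4 knockout muscle denervated for 14 days (KO denervated), wild-type muscle denervated for 14 days (WT denervated), innervated Smad4 knockout muscle (KO control) and innervated wild-type muscle (WT control). Smad4 is the mediator shared by the TGF-beta and BMP branches of SMAD signalling. The Cre line or promoter behind the deletion and the cells that lose Smad4 were not given in the sources used here.

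Troponin and tropomyosin make the thin filament of the sarcomere respond to calcium. Tropomyosin lies along the actin strand and covers its myosin-binding sites, troponin C binds calcium, troponin I holds the filament in the off state, and troponin T ties the complex to tropomyosin. Fast fibres, slow fibres and heart use different genes for each subunit. Tnnt3, Tnni2 and Tnnc2 are the fast skeletal forms, Tnnt1 and Tnni1 the slow skeletal forms, Tnnc1 serves both slow fibres and heart, and Tnnt2 is the cardiac troponin T, which embryonic skeletal muscle also makes. Tpm1 is the alpha form of fast muscle and heart, Tpm2 the beta form, and Tpm3 the alpha form of slow muscle. In mouse RefSeq annotation these genes partly lie in pairs of a troponin I and a troponin T gene. Tnni1 and Tnnt2 are on chromosome 1 with 1 coding gene (Lad1) between them, Tnni2 and Tnnt3 on chromosome 7 with 1 coding gene (Lsp1) between them, and Tnnt1 on chromosome 7 directly beside Tnni3, the cardiac troponin I.

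Levels are given as log2 of the processed signal minus the array's 75th percentile, so that 0 is the 75th percentile of that array and one unit is a doubling. Differences between groups are on the same log2 scale, with the SE and adjusted p of limma, fitted across all genes tested and adjusted by Benjamini-Hochberg, and a change was called at an adjusted p under 0.05. Levels of different probes are not compared with each other. The brightest kept probe stands for a gene, and each of the 10 such probes passed the background flag on all 12 arrays, so that no member passed the filter on dim probes through one group alone. Between 49.97% and 56.4% of probes were well above background on an array, no spot was saturated, and arrays of one group correlated at r of 0.974 to 0.985. The genotype was checked on Smad4 itself. The brighter of its 2 probes read 1.77, 2.05 and 1.89 in KO denervated and 3.18, 3.49 and 3.28 in WT denervated muscle, and 2.42, 2.38 and 2.19 in KO control and 3.74, 3.59 and 4.02 in WT control muscle. Smad4 was 2.67-fold lower in KO than in WT denervated muscle (-1.42 ± 0.15, adjusted p = 0.00160) and 2.75-fold lower in KO than in WT control muscle (-1.46 ± 0.15, adjusted p = 0.0186), a residual signal that in whole muscle also contains any cells that keep the gene. The call in control muscle was lost in 11 of 23 alternative settings, and whether the probes lie in the deleted stretch was not given in the sources used here.

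Denervation raised the cardiac troponin T gene Tnnt2 in both genotypes, the largest change among the 10 members. It was 17.1-fold higher in KO denervated than in KO control muscle and 20.3-fold higher in WT denervated than in WT control muscle. In KO muscle the slow Tnnt1 rose and the fast Tnnt3 and Tnni2 and the alpha-tropomyosin Tpm1 fell, with the opposite sign for Tnni2 and Tpm1 under quantile normalization. In WT muscle Tnnt2 was the single member that passed the test. With denervation 5 of 10 members were called in KO muscle (2 higher, 3 lower), against 46.9% of all genes tested (23.7% higher, 23.2% lower). In WT muscle 1 of 10 was called (higher), against 39.3% of all genes (18.7% higher, 20.6% lower). With quantile normalization the called members were 2 higher and 0 lower in each genotype, and in the authors' deposited series matrix 3 higher and 0 lower in KO and 2 higher and 0 lower in WT muscle. Denervated and control arrays did not overlap for 6 of 10 members in KO muscle (2 higher, 4 lower) and for 2 in WT muscle (1 higher, 1 lower). Over all genes these shares were 56.7% in KO (28.5% higher, 28.2% lower) and 53% in WT muscle (25.9% higher, 27.1% lower). The median change of the 10 members was -0.50 in KO and 0.03 in WT muscle, beside 0.00 and -0.02 over all genes tested.

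The stretches upstream of the annotated start are shown for 3 of the 5 genes that were called in KO muscle, because they set Tnnt2, with its large change, beside 2 genes with small ones. Of the 10 members, 8 had a promoter in the RefSeq table (GRCm38.p6), and Tnnt3 and Tnni2 had none there. Capitals mark the E-box CANNTG, the form of site bound by myogenic factors such as myogenin, and the M-CAT core CATTCC, the form bound by TEAD factors, both searched on either strand with no overlap between them. Each line gives the 250 bases before the start, 5′ to 3′ on the gene's strand. Tnnt2 lies at chr1:135836084-135836333 (plus strand), Tnnt1 at chr7:4515976-4516225 (minus strand) and Tpm1 at chr9:67049214-67049463 (minus strand).
Tnnt2: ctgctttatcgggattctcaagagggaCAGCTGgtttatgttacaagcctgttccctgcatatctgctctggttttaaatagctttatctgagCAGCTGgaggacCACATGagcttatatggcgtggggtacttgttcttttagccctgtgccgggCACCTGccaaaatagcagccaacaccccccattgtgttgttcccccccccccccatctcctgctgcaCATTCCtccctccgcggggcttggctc
Tnnt1: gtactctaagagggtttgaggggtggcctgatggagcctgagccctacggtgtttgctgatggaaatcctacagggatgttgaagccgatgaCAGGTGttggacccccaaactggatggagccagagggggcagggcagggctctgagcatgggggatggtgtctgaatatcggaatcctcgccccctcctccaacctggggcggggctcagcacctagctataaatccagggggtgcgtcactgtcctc
Tpm1: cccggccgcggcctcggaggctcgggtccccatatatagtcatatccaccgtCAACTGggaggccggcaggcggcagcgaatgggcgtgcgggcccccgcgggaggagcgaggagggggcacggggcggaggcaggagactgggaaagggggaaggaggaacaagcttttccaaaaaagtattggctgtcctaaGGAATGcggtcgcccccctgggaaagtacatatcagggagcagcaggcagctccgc
The Tnnt2 stretch held 4 E-boxes, beginning 223, 157, 145 and 94 bases before the start, and 1 M-CAT core 27 bases before it. The second annotated start of Tnnt2 had 1 E-box and no M-CAT core in its 250 bases. Tnnt1 held 1 E-box and no M-CAT core, and Tpm1 held 1 E-box and, on the opposite strand, 1 M-CAT core 56 bases before the start. All 8 members with a promoter had an E-box in at least one of their promoters, and 3 had an M-CAT core (Tnnt2, Tnnc1 and Tpm1). Of all 32851 promoters of the same length, 66.2% held an E-box and 12.6% an M-CAT core, so an E-box is common. These shares count promoters, while the members were counted as genes with 1 or 2 promoters each, so they are not directly comparable. No binding was measured here.

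Tnnt2, read by a probe at chr1:137667810-137668122 (mm8, plus strand; exon annotation of that build was not used here), stood at 3.09, 3.18 and 3.34 in KO denervated muscle, against -0.81, -1.16 and -0.71 in KO control muscle. In WT denervated muscle it stood at 4.56, 3.81 and 3.48, against -0.28, -0.32 and -0.58 in WT control muscle. Every denervated array lay above every control array, and the arrays spread most in WT denervated muscle (SD 0.55, against 0.13 to 0.23 in the other groups). The change was 4.10 ± 0.24 in KO (95% interval 3.56 to 4.63, adjusted p = 5.84e-07) and 4.34 ± 0.24 in WT muscle (3.81 to 4.88, adjusted p = 5.03e-07). By the size of the rise it ranked 87 of 15233 genes in KO muscle and 72 in WT muscle. On the intensity scale before any scaling, the probe read 2498 to 3697 in KO denervated, 3065 to 7238 in WT denervated, 106.9 to 154.2 in KO control and 162 to 242 in WT control muscle. Both calls held in all 23 alternatives, with changes between 3.40 and 4.19 in KO and between 3.65 and 4.58 in WT muscle. The second Tnnt2 probe, at chr1:137655475-137655534 and made for another transcript, was not well above background on any array.

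**Figure D1:**
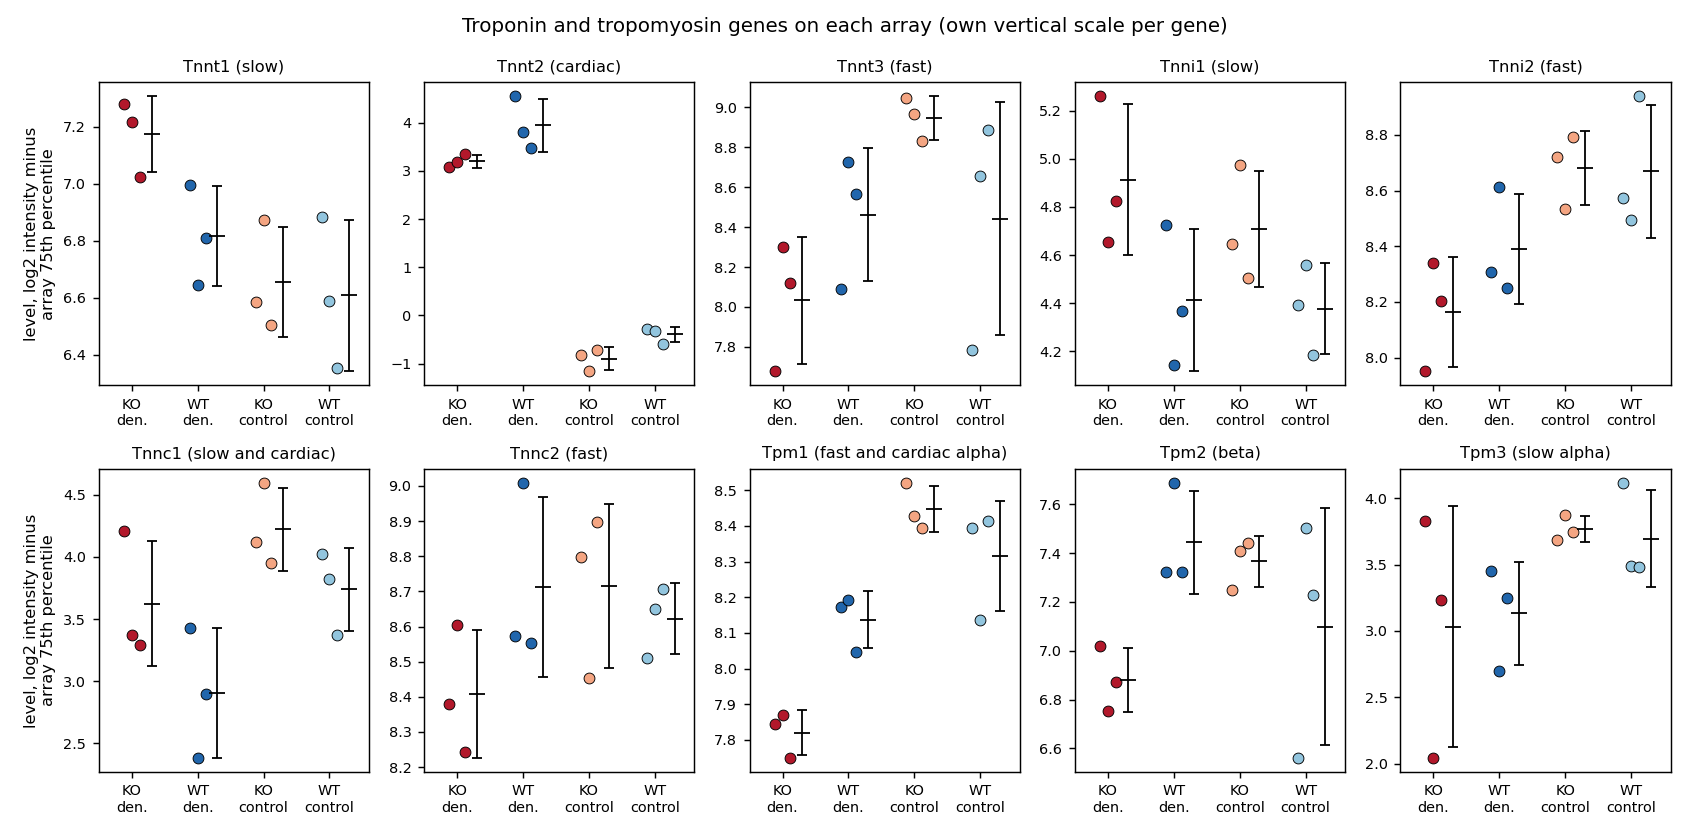
Level of each of the 10 members on each array (vertical axis, log2 of the processed signal minus the array's 75th percentile), with the groups KO denervated, WT denervated, KO control and WT control from left to right. Points are arrays, bars beside them are the group mean with SD (n = 3), and each gene has its own vertical scale. Tnnt2 separates the denervated arrays (3.09 to 4.56) from the control arrays (-1.16 to -0.28), and no other member shows a gap of that size.

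Other genes of the cardiac and embryonic programme did not move as one. Of 6 measured genes of that list, 2 rose and 2 fell in KO muscle and 2 rose and 1 fell in WT muscle, and with quantile normalization 2 rose and 1 fell in each genotype. Myh3, the embryonic myosin heavy chain, rose by 4.54 ± 0.58 (adjusted p = 9.89e-05) in KO and 4.80 ± 0.58 (adjusted p = 8.79e-05) in WT muscle. Myl4, the light chain of atrium and embryonic muscle, rose by 4.46 ± 0.29 in KO (adjusted p = 1.09e-06) and 3.77 ± 0.29 in WT muscle (adjusted p = 3.83e-06). Actc1, the cardiac actin, fell by 2.61 ± 0.30 in KO (adjusted p = 4.72e-05) and fell by 2.31 ± 0.30 in WT muscle (adjusted p = 0.000148). Tnni3 did not pass the test in either genotype (-0.68 ± 0.29 in KO, adjusted p = 0.0771; -0.25 ± 0.29 in WT, adjusted p = 0.542). Of 7 heart muscle markers 4 were measured, with 0 higher and 1 lower in KO muscle and 0 called in WT muscle, where limma gave all 4 adjusted p-values above 0.05. Their summed level, in multiples of the 75th percentile, was 15.9 to 21.0 in KO denervated, 12.5 to 15.1 in WT denervated, 23.6 to 54.3 in KO control and 14.7 to 31.0 in WT control muscle. The markers not measured were Mybpc3, Myl7 and Nppa. Mybpc3 and Myl7 were not well above background on any array. Nppa was, by its best probe, on 2 of 3 arrays in each WT group and on 0 in each KO group. The measured markers Myh6, Tnni3, Nppb and Ryr2 were well above background on 2 or 3 arrays of every group. Satellite cell and myoblast markers had 2 of 7 higher in each genotype, with a summed level of 9.03 to 23.3 in KO denervated, 19.6 to 29.0 in WT denervated, 7.10 to 11.9 in KO control and 8.53 to 9.98 in WT control muscle. Beside these counts, 23.7% of all genes tested were called higher and 23.2% lower in KO muscle, and 18.7% higher and 20.6% lower in WT muscle. The part of these cells in the Tnnt2 signal was not tested, and in RNA of whole muscle more cells of a type and more RNA per cell cannot be told apart.

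The 5 genes whose pattern over the 12 arrays lay nearest to that of Tnnt2, by the root mean square difference after centring each gene on its own mean, were Chrna1 (0.316), Gadd45a (0.397), Sh3rf1 (0.411), Cgref1 (0.451) and Myl4 (0.458). They were picked from 11231 genes detected above background on each of the 12 arrays, and the SD of the Tnnt2 pattern itself was 2.15. Chrna1, the alpha subunit of the muscle acetylcholine receptor, rose by 4.36 ± 0.13 in KO (adjusted p = 1.60e-08) and 4.51 ± 0.13 in WT muscle (adjusted p = 8.06e-09). Gadd45a, a stress-response gene, rose by 4.20 in KO and 3.92 in WT muscle, Sh3rf1 by 3.53 and 3.92, and Cgref1 by 4.64 and 4.78, with adjusted p-values of 7.51e-07 or less. These values describe how alike the profiles are, and all 12 arrays are shared between them.

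The slow troponin T gene Tnnt1, whose probe lies at chr7:4111571-4111630 (mm8, minus strand), was higher after denervation in KO muscle. It stood at 7.28, 7.22 and 7.02 in KO denervated muscle, against 6.58, 6.87 and 6.51 in KO control muscle. In WT denervated muscle it stood at 6.99, 6.64 and 6.81, against 6.88, 6.59 and 6.35 in WT control muscle. The KO groups did not overlap and the WT groups did. Tnnt1 rose 1.43-fold in KO muscle (0.52 ± 0.17, 95% interval 0.14 to 0.90, adjusted p = 0.0281), and the difference in WT muscle was 0.21 ± 0.17 (adjusted p = 0.365). The KO call was lost when KO denervated replicate 1, KO denervated replicate 2, KO control replicate 1 or KO control replicate 3 was left out (adjusted p between 0.0689 and 0.0931). It was also lost with the array median (0.46, adjusted p = 0.0635) and with normexp background correction (0.33, adjusted p = 0.481), and was larger with quantile normalization (1.05, adjusted p = 0.00371).

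The other slow forms did not pass the test. Tnni1, the slow troponin I, stood at 5.26, 4.65 and 4.82 in KO denervated muscle against 4.65, 4.98 and 4.50 in KO control muscle, and at 4.73, 4.14 and 4.37 in WT denervated against 4.39, 4.56 and 4.18 in WT control muscle. Both pairs of groups overlapped, and the differences were 0.20 ± 0.21 in KO (95% interval -0.26 to 0.67, adjusted p = 0.450) and 0.03 ± 0.21 in WT muscle (-0.43 to 0.50, adjusted p = 0.913). Tnnc1, the calcium-binding subunit of slow fibres and heart, stood at 4.21, 3.37 and 3.29 in KO denervated muscle against 4.12, 4.60 and 3.95 in KO control muscle. In WT denervated muscle Tnnc1 stood at 3.43, 2.38 and 2.90, against 4.02, 3.82 and 3.37 in WT control muscle. It was on average lower after denervation in both genotypes, with overlapping arrays, and did not pass the test (-0.60 ± 0.32 in KO, adjusted p = 0.143; -0.84 ± 0.32 in WT, adjusted p = 0.0565). The WT value passed the threshold in 6 of 23 alternatives, among them leaving out WT denervated replicate 1, WT control replicate 3 or KO denervated replicate 1, and the KO value in 2 of 23, with slide as a fixed block and without KO denervated replicate 1 (-0.89, adjusted p = 0.0411).

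The fast troponin T gene Tnnt3 had lower levels in denervated KO muscle. Its probe at chr7:142321739-142321964 (mm8, plus strand) read 7.68, 8.30 and 8.12 in KO denervated muscle, against 9.05, 8.97 and 8.83 in KO control muscle. In WT denervated muscle it read 8.09, 8.73 and 8.57, against 7.78, 8.66 and 8.89 in WT control muscle. All 3 KO denervated arrays lay below all 3 KO control arrays, while the WT groups overlapped. Tnnt3 fell 1.89-fold in KO muscle (-0.92 ± 0.28, 95% interval -1.53 to -0.30, adjusted p = 0.0197), and the WT difference was 0.02 ± 0.28 (-0.60 to 0.63, adjusted p = 0.965), with a low WT control replicate 1. The difference between the genotypes' responses was -0.93 ± 0.40 (adjusted p = 0.490), so it was not shown that the responses differ. A further Tnnt3 probe at chr7:142321985-142323747 fell by 1.04 ± 0.17 in KO muscle (adjusted p = 0.000635) and differed by -0.19 ± 0.17 in WT muscle (adjusted p = 0.418). Under quantile normalization neither Tnnt3 probe passed the test in KO muscle (-0.22, adjusted p = 0.395, and -0.31, adjusted p = 0.260), and the first lost its call without KO denervated replicate 1 (adjusted p = 0.0739) or KO control replicate 1 (adjusted p = 0.0533).

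The fast troponin I gene Tnni2 read 7.95, 8.34 and 8.20 in KO denervated muscle against 8.72, 8.53 and 8.79 in KO control muscle, and 8.31, 8.61 and 8.25 in WT denervated against 8.57, 8.49 and 8.94 in WT control muscle. The KO groups did not overlap. The change was -0.52 ± 0.17 in KO (95% interval -0.89 to -0.14, adjusted p = 0.0276), with the opposite sign under quantile normalization (0.27, adjusted p = 0.130), and -0.28 ± 0.17 in WT muscle (adjusted p = 0.222). The KO call was also lost without KO denervated replicate 1 or 3 or KO control replicate 1 or 3, 4 of the 12 fits that leave out 1 array each. Tnnc2, the fast troponin C, read 8.38, 8.60 and 8.24 in KO denervated muscle against 8.80, 8.45 and 8.90 in KO control muscle, and 8.57, 9.01 and 8.55 in WT denervated against 8.51, 8.65 and 8.71 in WT control muscle. Its arrays overlapped in both genotypes and it did not pass the test (-0.31 ± 0.18 in KO, adjusted p = 0.171; 0.09 ± 0.18 in WT, adjusted p = 0.715). In the authors' deposited series matrix it was called higher in KO muscle (0.49, adjusted p = 0.0335), the opposite sign.

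**Figure D2:**
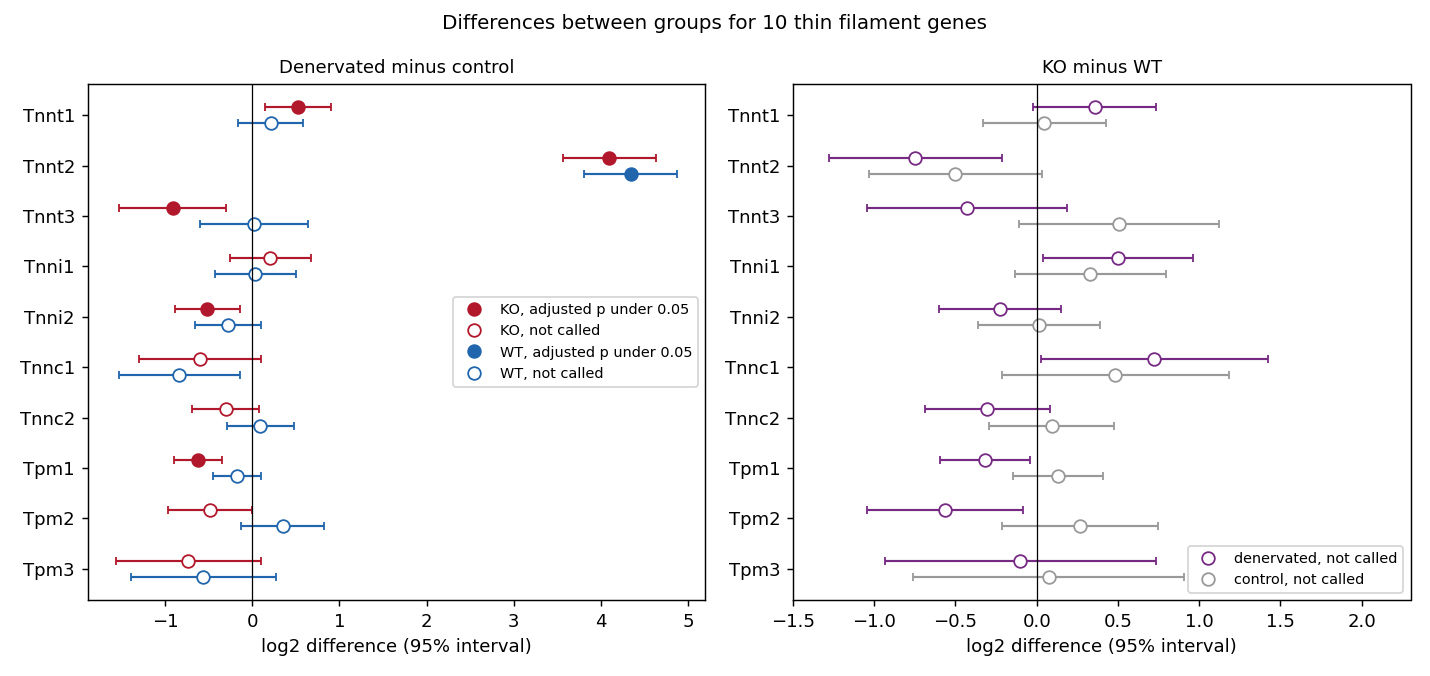
Differences on the log2 scale (horizontal axis) for each member with 95% intervals from limma, over 3 arrays a group, on signal scaled to the array's 75th percentile: denervated minus control in KO and WT muscle (left) and KO minus WT in denervated and control muscle (right), filled where called. Tnnt2 lies at 4.10 in KO and 4.34 in WT muscle on the left, the filled points below 0 are Tnnt3, Tnni2 and Tpm1 in KO muscle (Tnni2 and Tpm1 turn positive under quantile normalization), and no point on the right is filled.

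The direction of the brightest members depended on how the arrays were scaled. The 75th percentile taken off was an intensity of 276 to 364 in KO denervated and 238 to 270 in KO control arrays. It was 219 to 308 in WT denervated and 243 to 293 in WT control arrays. Of the 106 genes with a mean level of at least 7, which include Tnnt3, Tnni2, Tnnc2, Tpm1 and Tpm2, 85.8% were below 0 for denervation in KO muscle, with a median of -0.67. With quantile normalization the median of the same 106 genes was -0.03, and in the authors' deposited series matrix, which appears quantile-normalized, it was 0.01. In WT muscle their median was -0.19, and 0.02 with quantile normalization. The median over all genes tested was 0.00 in KO muscle and 0.05 with quantile normalization, so the scalings part at the bright end of the range. Beside the median of -0.67 in KO muscle, Tnnt3 changed by -0.92, Tpm1 by -0.63, Tnni2 by -0.52, Tpm2 by -0.48 and Tnnc2 by -0.31, and no test set these values against that median. Before any scaling, Tnnt3 read 71256 to 101190 in KO denervated and 115046 to 142722 in KO control muscle. In the same order Tpm1 read 64456 to 79906 and 82111 to 99168. Tnni2 read 86111 to 107152 and 88308 to 113921, with overlap. Tnnc2 read 107300 to 115948 and 83521 to 120515, and Tpm2 29782 to 45103 and 40544 to 43870, each with overlap. Tnnt2 was called higher in both genotypes under each of the 5 scalings.

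**Figure D3:**
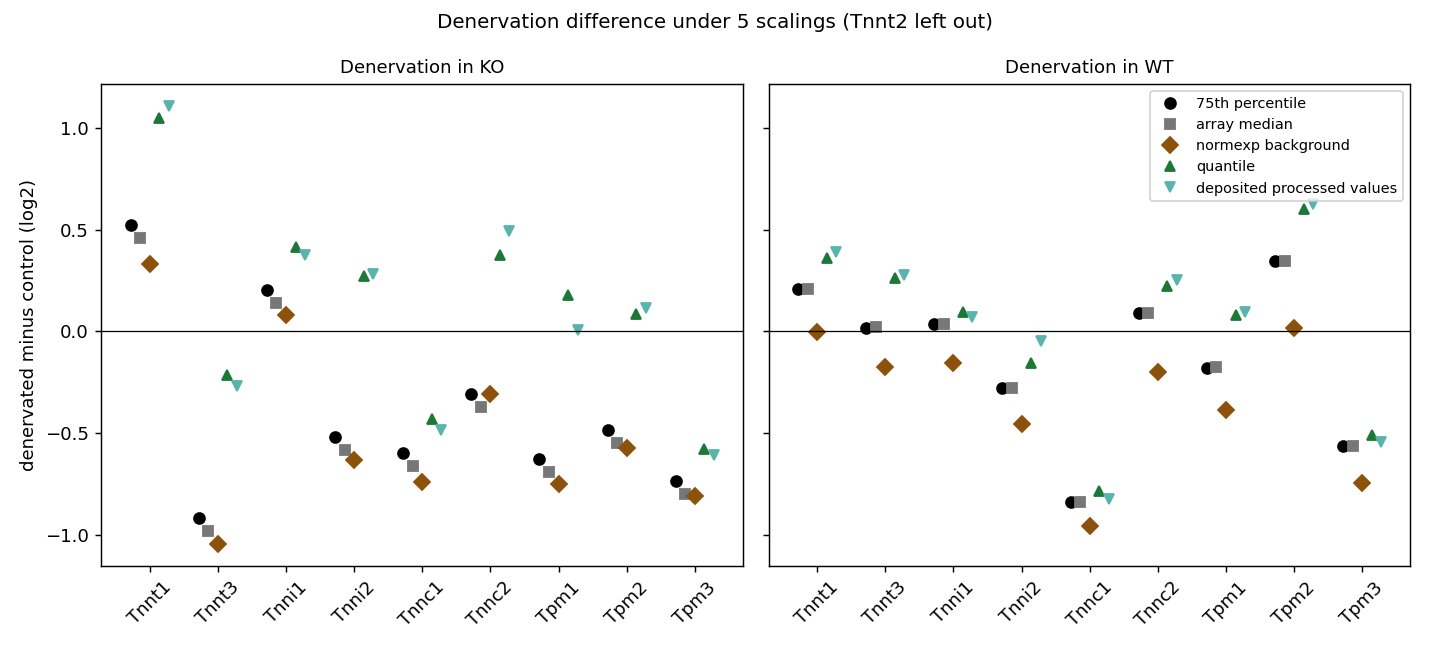
Difference denervated minus control (vertical axis, log2) of 9 members, Tnnt2 left out for its size, in KO (left) and WT muscle (right) under 5 scalings of the same arrays: the array's 75th percentile, the array median, normexp background correction, quantile normalization and the authors' deposited series matrix. In KO muscle Tnni2, Tnnc2, Tpm1 and Tpm2 are below 0 in the first 3 and above 0 in the last 2, while Tnnt3, Tnnc1 and Tpm3 stay below 0 and Tnnt1 and Tnni1 above it.

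Within an array, a difference between 2 probes does not depend on a constant added to all of them, so each slow form was set against its fast partner as the shift of that difference from its mean in WT control muscle. For troponin T (Tnnt1 minus Tnnt3) the shift was 1.44, 0.75 and 0.74 in KO denervated muscle, against -0.63, -0.26 and -0.49 in KO control muscle. In WT denervated muscle it was 0.74, -0.25 and 0.08, against 0.93, -0.24 and -0.70 in WT control muscle. The KO groups stood apart by 1.44 with no overlap, and by 1.27 to 1.44 over the 5 scalings, whereas the WT groups overlapped and differed by 0.19. KO and WT denervated muscle differed by 0.79 (0.78 to 0.82 over the scalings), with the lowest KO and the highest WT array both at 0.74. For troponin I (Tnni1 minus Tnni2) the denervated and control arrays overlapped in both genotypes, with differences of 0.72 in KO and 0.31 in WT muscle, and the KO value was 0.15 with quantile normalization. For troponin C (Tnnc1 minus Tnnc2) the differences ran the other way, -0.29 in KO and -0.93 in WT muscle, again with overlap. Among these 6 comparisons of denervated with control arrays, the slow form gained on the fast form without overlap in troponin T of KO muscle alone. For single genes, denervated and control arrays did not overlap in 56.7% of all genes in KO and 53% in WT muscle. No such share was computed for differences between 2 genes, so the lack of overlap is not shown to be unusual. Overlap was not computed for the other scalings. No p is given because the pairs were set up with earlier results known.

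Tpm1, the alpha tropomyosin of fast fibres, read 7.84, 7.87 and 7.75 in KO denervated muscle against 8.52, 8.43 and 8.39 in KO control muscle, by its brightest probe at chr9:66827296-66828851 (mm8, minus strand). In WT denervated muscle it read 8.17, 8.19 and 8.05, against 8.39, 8.14 and 8.41 in WT control muscle. The KO groups were well separated and the WT groups overlapped. The change was -0.63 ± 0.13 in KO muscle (95% interval -0.90 to -0.35, adjusted p = 0.00188), was called in every fit that left out 1 array, and turned to 0.18 (adjusted p = 0.417) with quantile normalization and 0.01 (adjusted p = 0.974) in the deposited matrix. In WT muscle the difference was -0.18 ± 0.13 (adjusted p = 0.284), with the opposite sign under the same settings (0.08 and 0.09). A dimmer Tpm1 probe at chr9:66822206-66822265 read 1.07, 1.39 and 0.72 in KO denervated against 1.78, 1.59 and 1.78 in KO control muscle, and 0.64, 1.04 and 0.95 in WT denervated against 1.57, 1.64 and 1.74 in WT control muscle. By this probe both genotypes showed lower denervated arrays with no overlap. It fell by 0.66 ± 0.18 in KO (adjusted p = 0.0110) and fell by 0.78 ± 0.18 in WT muscle (adjusted p = 0.00576), and remained called with quantile normalization (-0.61, adjusted p = 0.0145, in KO; -0.75, adjusted p = 0.00622, in WT). With normexp it was called in WT (-0.77, adjusted p = 0.0445) and not in KO muscle (-0.63, adjusted p = 0.0789). The third Tpm1 probe, at chr9:66831962-66833032, changed by -1.02 ± 0.16 in KO (adjusted p = 0.000453) and -0.37 ± 0.16 in WT muscle (adjusted p = 0.0902). Tpm1 makes many spliced transcripts, and which of them each probe reads was not determined.

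Tpm2, the beta form, read 7.02, 6.75 and 6.87 in KO denervated muscle against 7.25, 7.41 and 7.44 in KO control muscle, and 7.32, 7.69 and 7.32 in WT denervated against 6.56, 7.50 and 7.23 in WT control muscle. The KO arrays did not overlap and the WT arrays did. The change did not pass the test in either genotype. It was -0.48 ± 0.22 in KO (adjusted p = 0.0894) and 0.35 ± 0.22 in WT muscle (adjusted p = 0.235). With quantile normalization the KO value was 0.08. In WT muscle Tpm2 was called higher with quantile normalization (0.60, adjusted p = 0.0428) and in the deposited matrix (0.62, adjusted p = 0.0367), and its WT value was 0.02 with normexp. In KO muscle it was called lower with the mean of its probes (-0.72, adjusted p = 0.00612) and without WT control replicate 1 (adjusted p = 0.0292). Its other probe, at chr4:43539504-43539563 (mm8), changed by -0.96 ± 0.24 in KO (adjusted p = 0.00728) and -0.11 ± 0.26 in WT muscle (adjusted p = 0.773), with WT control replicate 2 missing as an outlier spot. Tpm3, the slow alpha form, read 3.82, 2.04 and 3.23 in KO denervated against 3.69, 3.87 and 3.75 in KO control muscle, and 3.45, 2.70 and 3.25 in WT denervated against 4.11, 3.49 and 3.48 in WT control muscle. KO denervated arrays were the most scattered (SD 0.91), the WT groups were just apart, and no difference passed the test (-0.74 ± 0.38 in KO, adjusted p = 0.132; -0.56 ± 0.38 in WT, adjusted p = 0.266). Leaving out 1 array moved the KO value of Tpm3 between -1.13, without KO denervated replicate 1 (adjusted p = 0.0242), and -0.24, without KO denervated replicate 2 (adjusted p = 0.514), and it also passed with slide as a fixed block (-0.93, adjusted p = 0.0366). The other Tpm3 probe, at chr3:90186351-90186410 (mm8), changed by -0.04 ± 0.15 in KO (adjusted p = 0.857) and -0.18 ± 0.15 in WT muscle (adjusted p = 0.363). Its SD in KO denervated muscle was 0.12. Between KO and WT denervated muscle this probe differed by 0.37 ± 0.15 with no overlap (adjusted p = 0.241), against -0.10 for the first probe. Tpm4, a tropomyosin of non-muscle cells and smooth muscle that is no member of the 10, changed by -0.34 ± 0.18 in KO (adjusted p = 0.137) and fell by 0.80 ± 0.18 in WT muscle (adjusted p = 0.00450).

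Markers of smooth muscle and pericytes, cells that also use Tpm1 and Tpm2, were lower in 4 of 9 genes in KO and 5 of 9 in WT muscle, and higher in none by limma's test. Their summed level was 109 to 137 in KO denervated, 173 to 204 in WT denervated, 282 to 335 in KO control and 255 to 333 in WT control muscle. Muscle fibre markers were lower in 3 of 8 genes in KO and 1 of 8 in WT muscle, with a summed level (over 7 of them) of 1124 to 1448 in KO denervated, 1359 to 1860 in WT denervated, 2019 to 2251 in KO control and 1739 to 2138 in WT control muscle. Macrophage markers were higher in 4 of 7 genes in KO and 1 of 7 in WT muscle. Endothelial markers were lower in 5 of 6 genes in KO and 4 of 6 in WT muscle, erythrocyte markers in 3 of 3 in each, and fibroblast markers in 0 of 7 in KO and 1 of 7 in WT muscle. Over all genes tested, 23.7% were called higher and 23.2% lower in KO muscle, and 18.7% higher and 20.6% lower in WT muscle. The part of these cell types in the tropomyosin and fast troponin values was not tested.

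**Figure D4:**
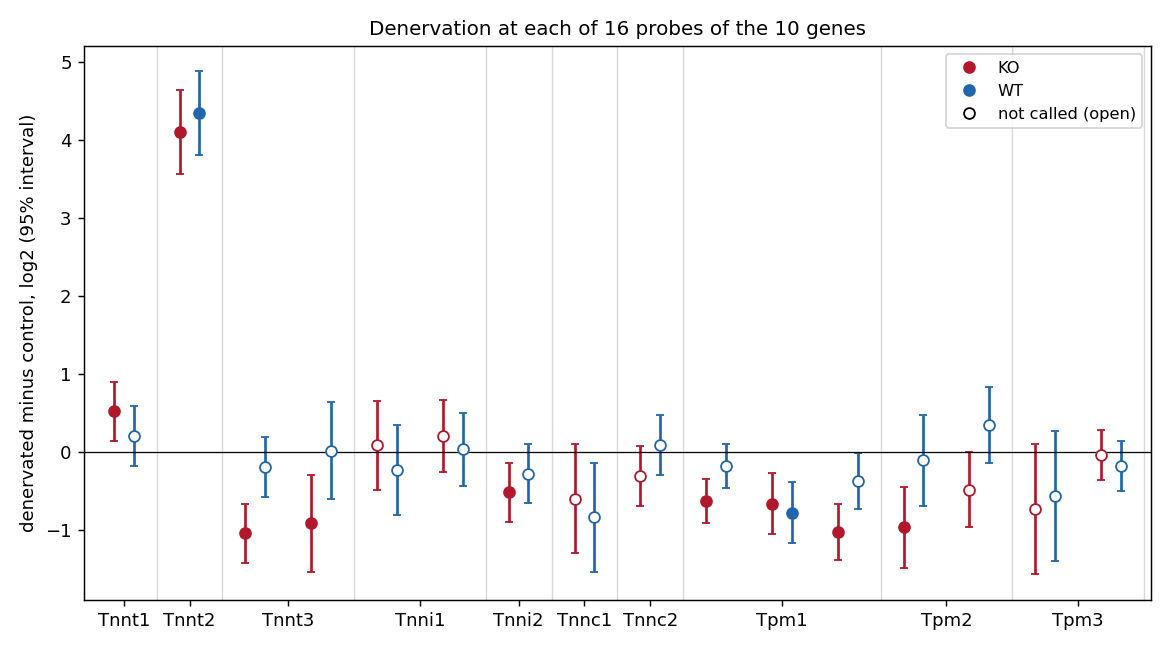
Difference denervated minus control (log2) of each of the 16 probes that passed the filter, in KO and WT muscle, with 95% intervals over 3 arrays a group, filled where called, on signal scaled to the array's 75th percentile. With denervation 9 of 16 probes were called in KO muscle (2 higher, 7 lower) and 2 of 16 in WT muscle (Tnnt2 higher, 1 Tpm1 probe lower); of the 7 lower ones in KO muscle, 1 Tpm1 probe stayed called under quantile normalization.

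Over all kept probes, 46.9% were called with denervation in KO muscle (23.1% higher, 23.8% lower) and 38.7% in WT muscle (18.8% higher, 19.9% lower). The 9 of 16 member probes called in KO and the 2 of 16 in WT muscle stand beside these shares. Probes of 1 gene differed in sign in WT muscle for Tnnt3, Tnni1 and Tpm2, where no difference passed the test.

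KO and WT denervated muscle differed in no member by limma (0 of 10, against 2.19% of all genes tested), although 5 of 10 had an unadjusted p under 0.05, against 16.3% of all genes. Tnnt2 was lower in all 3 KO denervated arrays than in all 3 WT denervated arrays, at -0.75 ± 0.24 (95% interval -1.28 to -0.21, adjusted p = 0.156). The value was -1.47 on the slide that held KO and WT denervated replicate 1, and -0.47 on the slide that held KO denervated replicate 2 with WT denervated replicates 2 and 3. Arrays of 4 members did not overlap between these groups (Tnnt2, Tpm1 and Tpm2 lower and Tnnt1 higher in KO), against 21.7% of all genes (11.5% lower, 10.2% higher). Tnnt1 differed by 0.36 ± 0.17 (adjusted p = 0.334), Tpm1 by -0.32 ± 0.13 (adjusted p = 0.240) and Tpm2 by -0.56 ± 0.22 (adjusted p = 0.232). The slow Tnni1 (0.50 ± 0.21, adjusted p = 0.266) and Tnnc1 (0.72 ± 0.32, adjusted p = 0.289) were on average higher in KO and overlapped with WT. Among the fast forms Tnnt3 differed by -0.43 ± 0.28 (adjusted p = 0.492), Tnni2 by -0.23 ± 0.17 (adjusted p = 0.558) and Tnnc2 by -0.30 ± 0.18 (adjusted p = 0.426), the last 2 with the opposite sign under quantile normalization (0.09 and 0.06). The 106 bright genes had a median of -0.31 here, and -0.03 with quantile normalization. No member probe was called (0 of 16, against 1.93% of kept probes). The Tnnt3 probe at chr7:142321985-142323747 differed by -0.69 ± 0.17 (adjusted p = 0.0779), and passed the threshold with scan day as a block (-0.77, adjusted p = 0.0396) and without KO denervated replicate 1 (-0.83, adjusted p = 0.0426).

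In innervated muscle no member differed between KO and WT by limma (0 of 10, with 0 at an unadjusted p under 0.05), where 0.00656% of all genes tested were called, namely Smad4 alone. Tnnt2 was the member with the smallest p and its arrays did not overlap, with KO lower (-0.50 ± 0.24, 95% interval -1.03 to 0.03, adjusted p = 1.00). Arrays did not overlap in 8.55% of all genes, with KO lower in 4.84%. On the 2 slides that held arrays of both genotypes the Tnnt2 value was -0.83 and -0.13. Tnnt3 differed by 0.51 ± 0.28 and Tnnc1 by 0.48 ± 0.32 with overlapping arrays. The response to denervation differed between the genotypes for no member by limma (0 of 10, with 3 at an unadjusted p under 0.05, against 0.184% of all genes called and 9.43% at that unadjusted p). Those 3 were Tnnt3 (-0.93 ± 0.40, adjusted p = 0.490), Tpm1 (-0.45 ± 0.18, adjusted p = 0.454, with the opposite sign, 0.10, under quantile normalization) and Tpm2 (-0.83 ± 0.31, adjusted p = 0.426). For Tnnt2 the difference of the responses was -0.25 ± 0.34 (adjusted p = 0.872), which does not show that the responses were equal.

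Slides could be compared within in part. WT denervated replicates 2 and 3 lay on slide 4, scanned on day 2, and replicate 1 on slide 1. The 3 WT control arrays lay on slides 1, 2 and 3, scanned on day 1. KO denervated replicate 2 and KO control replicate 1 were also on slide 4. Denervation in WT muscle thus partly coincides with slide and scan day, and these cannot be fully told apart. On slides that held a denervated and a control array of the same genotype, Tnnt2 differed by 4.06 and 3.99 in KO and 4.83 in WT muscle. Tnnt3 differed by -0.71 and -0.75 in KO and 0.31 in WT muscle, Tpm1 by -0.65 and -0.65 in KO and -0.22 in WT muscle, Tnni2 by -0.59 and -0.38 in KO and -0.27 in WT muscle, and Tnnt1 by 0.52 and 0.63 in KO and 0.11 in WT muscle. For the 5 members called in KO muscle the KO denervated and control arrays did not overlap. Their sign on both KO slides was therefore fixed in advance and is no separate check. Each slide value rests on 1 array a group.

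Other genes of the thin filament, fast fibres and slow fibres show what moved alongside. Their counts stand beside shares over all genes tested of 23.7% higher and 23.2% lower in KO, and 18.7% higher and 20.6% lower in WT muscle. Among 18 measured thin filament partners, 0 rose and 9 fell in KO muscle and 0 rose and 10 fell in WT muscle, with medians of -0.64 and -0.63 beside 0.00 and -0.02 over all genes. Kbtbd13, a ubiquitin ligase adaptor linked to nemaline myopathy, fell by 4.21 ± 0.35 in KO (adjusted p = 6.08e-06) and fell by 3.20 ± 0.35 in WT muscle (adjusted p = 4.87e-05). It was well above background on 2 of 3 KO denervated arrays and on all 9 others. Tmod4, a tropomodulin that caps the pointed end of the filament, fell by 1.73 ± 0.19 in KO (adjusted p = 3.18e-05) and fell by 1.33 ± 0.19 in WT muscle (adjusted p = 0.000261). Acta2, the smooth muscle actin, fell by 1.53 ± 0.19 in KO (adjusted p = 8.58e-05) and fell by 0.65 ± 0.19 in WT muscle (adjusted p = 0.0191). The WT call of Acta2 was lost in 9 of 23 alternatives (adjusted p up to 0.256), among them leaving out WT denervated replicate 1 or 3 or WT control replicate 3, and with the mean of its probes the KO value was -0.19 (adjusted p = 0.582). With normexp Kbtbd13 changed by -1.74 in KO and -1.45 in WT muscle, both still called. With quantile normalization this list had 2 higher and 6 lower in KO and 1 higher and 7 lower in WT muscle.

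Of 11 genes of the fast-fibre sarcomere and calcium store, 0 rose and 8 fell in KO muscle and 0 rose and 4 fell in WT muscle, with medians of -0.95 and -0.19. Among all genes tested, 23.7% rose and 23.2% fell in KO muscle, and 18.7% rose and 20.6% fell in WT muscle. With quantile normalization these counts were 1 and 3 in KO (median -0.22) and 1 and 3 in WT muscle (median 0.08). Casq1, the calcium-binding protein of the fast-fibre store, fell by 2.39 ± 0.25 in KO (adjusted p = 2.53e-05) and fell by 1.59 ± 0.25 in WT muscle (adjusted p = 0.000564). Myoz1, a Z-disc protein of fast fibres, fell by 2.00 ± 0.22 in KO (adjusted p = 3.18e-05) and fell by 1.27 ± 0.22 in WT muscle (adjusted p = 0.000938). Mybpc2, the fast myosin-binding protein C, fell by 1.58 ± 0.18 in KO (adjusted p = 4.84e-05) and fell by 1.51 ± 0.18 in WT muscle (adjusted p = 8.79e-05). Atp2a1, the calcium pump of fast fibres, fell by 1.21 ± 0.16 in KO (adjusted p = 0.000105) and fell by 0.50 ± 0.16 in WT muscle (adjusted p = 0.0264). With quantile normalization Atp2a1 changed by -0.49 in KO (adjusted p = 0.0646) and -0.23 in WT muscle (adjusted p = 0.394). Its WT call was lost in 11 of 23 alternatives, among them the replicate block (adjusted p = 0.0517) and leaving out WT denervated replicate 1 or 2 or WT control replicate 2 or 3. The KO value of Mybpc2 was -0.96 with quantile normalization, still called.

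Of 10 genes of the slow-fibre sarcomere and calcium store, 1 rose and 4 fell in KO muscle and 1 rose and 1 fell in WT muscle, with medians of -0.38 and 0.06. The shares over all genes were 23.7% higher and 23.2% lower in KO, and 18.7% higher and 20.6% lower in WT muscle. With quantile normalization 2 rose and 2 fell in KO muscle (median -0.10) and 2 rose and 1 fell in WT muscle (median 0.17). Csrp3, the muscle LIM protein, rose by 1.84 ± 0.18 in KO (adjusted p = 1.37e-05) and 2.75 ± 0.18 in WT muscle (adjusted p = 1.10e-06). Myl2, the slow and ventricular regulatory light chain, fell by 2.83 ± 0.40 in KO (adjusted p = 0.000201) and fell by 1.51 ± 0.40 in WT muscle (adjusted p = 0.0117). Myl3, the slow and ventricular essential light chain, fell by 0.84 ± 0.18 (adjusted p = 0.00260) and Myoz2, the slow-fibre Z-disc protein, fell by 0.71 ± 0.16 (adjusted p = 0.00409) in KO muscle. Myl3 lost its KO call with quantile normalization (-0.21, adjusted p = 0.162), in the deposited matrix (-0.18) and with normexp (-0.80, adjusted p = 0.0954), and Myoz2 with the mean of its probes (-0.02, adjusted p = 0.959). The WT call of Myl2 was lost with scan day as a block (-1.26, adjusted p = 0.0586).

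**Figure D5:**
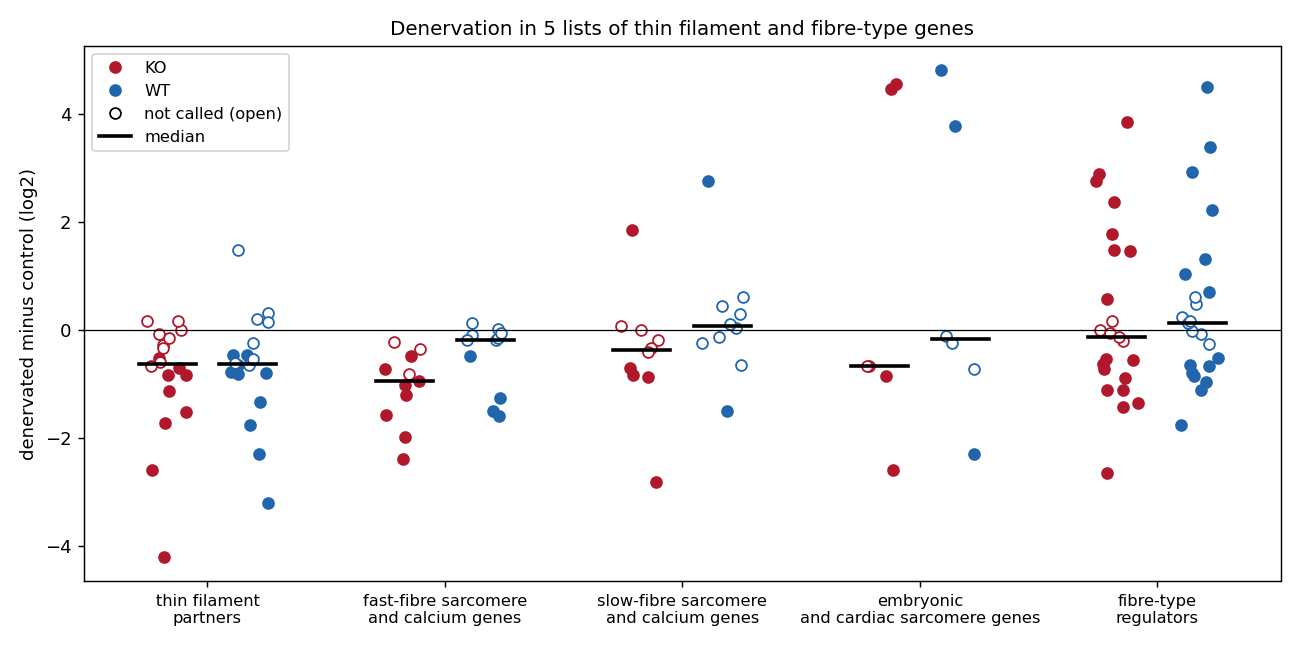
Difference denervated minus control (vertical axis, log2) of each measured gene of 5 lists in KO and WT muscle, filled where called, with a bar at the list median, on signal scaled to the array's 75th percentile over 3 arrays a group. The fast-fibre list has a median of -0.95 in KO and -0.19 in WT muscle, and with quantile normalization -0.22 in KO and 0.08 in WT muscle.

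Regulators of fibre type moved both ways, as did all genes tested (23.7% higher and 23.2% lower in KO, 18.7% higher and 20.6% lower in WT muscle). Of 23 measured, 8 rose and 10 fell in KO muscle and 7 rose and 8 fell in WT muscle, counts that were 8 and 10 in KO and 7 and 7 in WT muscle with quantile normalization. Myog, the myogenic factor myogenin, rose by 3.85 ± 0.37 in KO (adjusted p = 1.33e-05) and 4.50 ± 0.37 in WT muscle (adjusted p = 5.69e-06). Tead4, a factor of the family that binds M-CAT sites, rose by 2.88 ± 0.27 in KO (adjusted p = 1.24e-05) and 3.38 ± 0.27 in WT muscle (adjusted p = 5.00e-06). Hdac4, a class II deacetylase, rose by 2.75 ± 0.14 in KO (adjusted p = 2.57e-07) and 2.92 ± 0.14 in WT muscle (adjusted p = 2.08e-07). Vgll2, a partner of TEAD factors, fell by 2.66 ± 0.24 in KO (adjusted p = 7.96e-06) and fell by 0.67 ± 0.24 in WT muscle (adjusted p = 0.0418). The WT call of Vgll2 was lost in 12 of 23 alternatives, with values between -0.78 and -0.48 there and adjusted p up to 0.180, among them leaving out WT denervated replicate 2 or 3, WT control replicate 1 or 2, or any 1 of the KO control arrays. With normexp Tead4 rose by 1.66 in KO and 1.36 in WT muscle. Between KO and WT denervated muscle 2 of the 23 were called, both lower in KO (1.23% of all genes were), namely Vgll2 (-1.92 ± 0.24, adjusted p = 0.00223) and Esrrg, an oestrogen-related receptor (-1.30 ± 0.23, adjusted p = 0.0164). The Esrrg call was lost in 7 of 23 alternatives, among them the mean of its probes (-0.68, adjusted p = 0.0998), normexp (-0.81, adjusted p = 0.336), the replicate block (adjusted p = 0.0612) and leaving out KO denervated replicate 3 or WT denervated replicate 1 or 3, and that of Vgll2 with normexp (-1.62, adjusted p = 0.0921).

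The 5 genes nearest in pattern to Tnnt3 were Tcap (0.140), Myh4 (0.157), Mylpf (0.163), Pvalb (0.173) and Mdga2 (0.181), against an SD of 0.45 for the Tnnt3 pattern. Mylpf, the fast regulatory light chain, fell by 0.95 ± 0.27 (adjusted p = 0.0144) and Pvalb, the calcium buffer parvalbumin, fell by 1.02 ± 0.31 (adjusted p = 0.0190) in KO muscle, and both calls were lost with quantile normalization. Myh4, the fastest myosin heavy chain, changed by -0.82 ± 0.33 (adjusted p = 0.0644) and Tcap, the titin cap, by -0.63 ± 0.30 (adjusted p = 0.105, with the opposite sign, 0.07, under quantile normalization). The nearest to Tnnt1 were Adnp2 (0.105), Riox1 (0.111), Gpkow (0.136), Asb3 (0.138) and Iqcb1 (0.142), against an SD of 0.27 for the Tnnt1 pattern. Of the 5 genes nearest to Tnnt3, 3 are on the fast-fibre list of 11 genes. Of the 5 nearest to Tnnt1, 0 are on the slow-fibre list of 10 genes. All were picked from 11231 genes for likeness on these same arrays, so a count of 0 does not set Tnnt1 apart. The lists were chosen with earlier results known, so the 3 beside Tnnt3 describe likeness and are no test. The p-values of genes picked in this way come from the arrays they were picked on. Tnnt3 is among the 106 genes with a mean level of at least 7. Their median for denervation in KO muscle was -0.67, and -0.03 with quantile normalization. The part of this shift in the likeness to Tnnt3 was not tested.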

How the data were processed

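One-colour Agilent arrays (12 in all) measured Cy3-labelled total RNA of whole gastrocnemius, per the labels' protocols. For each spot the authors deposited an intensity from the scanner software. Background subtraction and detrending had been applied array by array, per the file headers, dim spots had received surrogate values, and arrays had not been normalized against each other. Feature Extraction is named as version 10.7.3.1 in the headers and as 10.5.1.1 in the submitters' processing notes. The authors' deposited series matrix holds intensity that appears quantile-normalized, and how it was made is not given in the sources used here. Flags per spot (well above background, saturated, outlier) are those of the deposited scanner files, and probe positions are on mm8, per the file headers.

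From these, control spots and outlier spots were left out, spots of a probe were averaged, and the log2 of the processed intensity minus the array's 75th percentile was taken. Probes were kept when well above background on all 3 arrays of at least 1 group, which left 22533 probes and 15233 genes. A gene was represented by its kept probe of highest mean signal. Names came from the accession in the scanner files, matched to RefSeq, for 24367 probes, from a current symbol for 6307, from an older one for 2425, and stayed as in the file for 8075. One limma model (version 3.58.1, R 4.3.3, 4 group means, 8 residual degrees of freedom) was fitted to all genes and another to all probes, with two-sided tests and Benjamini-Hochberg adjustment. The number of arrays limits the precision. The p-values rest on a spread for each gene that is pooled over the 4 groups and drawn towards that of other genes. They do not measure the spread within the 3 arrays of a group. Exact permutation of 3 against 3 arrays could not go below p = 0.1. The fit was tested on simulated data.

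The members and gene lists were chosen with earlier results of these data known. The genes named are the 10 members, Smad4, up to 4 genes of each list with the smallest adjusted p in the comparison described, and for Tnnt1, Tnnt2 and Tnnt3 the 5 genes nearest in pattern. Tpm4, Tnni3 and Esrrg were named for their values or kinship in addition, and Mybpc3, Myl7, Nppa, Myh6, Nppb and Ryr2 as heart muscle markers. Alternatives were the array median, normexp (offset 50), quantile normalization, the deposited matrix, a stricter filter, no filter, the mean of probes, slide and scan day as blocks, the replicate number as a block, and leaving out each array. Scalings of lists, of single probes, of bright genes and of slow minus fast differences were added after seeing the data. Replicate numbers come from the titles, and whether they pair animals across conditions was not given in the sources used here. Same-numbered WT denervated and control arrays deviated together from their group means (r = 0.304, 0.109 and 0.234), while KO pairs had r of 0.089, 0.013 and 0.175, so the pairs were all over 0.1 in WT muscle only. The fit took no pairs, and the replicate number as a block was an alternative fitted to all 12 arrays. Probe sequences and proteins were not used here.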

Additional observations from a re-analysis of the deposited data

Results flagged for a closer look

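Vgll2, a partner of TEAD factors on the list of fibre-type regulators, stood out because its response to denervation differed between the genotypes when the difference itself was tested. Denervation lowered it by 2.66 on the log2 scale in KO muscle, against a change of -0.67 in WT muscle, a difference of responses of -1.99 ± 0.33 (limma, adjusted p = 0.0487, over 3 arrays a group). The call of this difference was lost in 17 of 23 alternative settings, the replicate block among them (adjusted p = 0.0705), and over all 23 the value stayed between -2.22 and -1.81. None of the 10 troponin and tropomyosin genes showed such a difference (0 called by limma, 3 at an unadjusted p under 0.05), and no group held enough arrays for a check of single outlying arrays.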

How the results depend on the processing

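Tnnt2 was called higher with denervation in both genotypes under all 23 alternatives. Over the 10 members with denervation, 199 of 230 values in KO muscle and 203 of 230 in WT muscle kept direction and call. Members called in KO muscle were 5, against 2 with quantile normalization (2 higher, 0 lower), 2 with normexp and 3 in the deposited matrix (3 higher, 0 lower), and 2 to 6 when 1 array was left out, with 2 without KO control replicate 1 and 3 without KO control replicate 3. In WT muscle 1 was called, against 2 with quantile normalization, the deposited matrix, the filter on all 12 arrays, the mean of probes and slide as a fixed or random block, and 1 to 2 when 1 array was left out (2 without WT denervated replicate 1, WT control replicate 3 or KO denervated replicate 1). Member probes called in KO muscle were 9, against 3 with quantile normalization and 4 with normexp, and 6 to 10 when 1 array was left out, and in WT muscle 2, and 2 to 3. Between KO and WT denervated muscle 1 probe was called with scan day as a block, and 0 to 1 when 1 array was left out. With the replicate number as a block, 4 members were called in KO and 1 in WT muscle and 8 and 2 probes; Tnni2 in KO muscle lost its call (adjusted p = 0.0661), and the block added no call among members.

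Signs turned as follows, and the cause was not tested. With quantile normalization and in the deposited matrix, denervation in KO muscle gave 0.27 and 0.28 for Tnni2, 0.38 and 0.49 for Tnnc2, 0.18 and 0.0072 for Tpm1, 0.0838 and 0.11 for Tpm2 and 0.0677 and 0.0406 for Tcap. The same settings gave 0.0798 and 0.0943 for Tpm1 in WT muscle, and between KO and WT denervated muscle 0.0918 and 0.11 for Tnni2 and 0.0559 and 0.14 for Tnnc2. Quantile normalization gave 0.10 for the difference of responses of Tpm1. With normexp, denervation in WT muscle gave -0.0039 for Tnnt1, -0.18 for Tnnt3, -0.15 for Tnni1 and -0.20 for Tnnc2, and Tpm3 differed by 0.0274 between KO and WT denervated muscle. With the mean of probes the values were -0.0855 for Tnnt3 and -0.10 for Tnni1 in WT muscle and 0.14 for Tpm3 between KO and WT denervated muscle. Tnnt3 in WT muscle was -0.23 with scan day and -0.0041 with slide as a random block, and Tnnc2 in WT muscle was -0.0486 with scan day and -0.052 with slide as a fixed block. Leaving out 1 array gave ranges in WT muscle of -0.31 to 0.24 for Tnnt3, -0.12 to 0.17 for Tnni1 and -0.0585 to 0.17 for Tnnc2, of -0.50 to 0.39 for Tpm3 between KO and WT denervated muscle, and of -0.48 to 0.0573 for the difference of responses of Tnnt2. With 3 arrays a group, the 95% interval of a member's denervation difference reached from 0.27 to 0.83 on either side of its value.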
